A study of Mus musculus with 2 samples.

Results

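The 7 genes Pla2g4a, Ptgs1, Ptgs2, Ptges, Ptges2, Ptges3 and Ptgis encode enzymes of prostaglandin synthesis. They were taken by name from a table of 10982 genes, and 6 of them had a row. Ptges, the inducible microsomal prostaglandin E synthase gene, had none, and its expression was not analysed here. RNA had been sequenced from 2 cultures labelled as neonatal mouse cardiomyocytes from heart, with 1 library per group. One culture had received a negative control and the other an antagomir, a modified antisense oligonucleotide, against FERPIR, a piRNA, which is a short RNA of the kind that PIWI proteins bind. A treatment label of PBS is shared by both, and the sources used here give no strain, dose or time after transfection. The comparison addresses how gene expression differs when FERPIR is knocked down. With 1 library per group there is no replicate check, so no test, SD or p-value is given and every difference describes these 2 libraries only.

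Prostaglandins are short-range lipid signals made from arachidonic acid. Cytosolic phospholipase A2, the product of Pla2g4a, releases arachidonic acid from membranes, and the cyclooxygenases, products of Ptgs1 and Ptgs2, convert it to prostaglandin H2. Terminal synthases turn this intermediate into single prostanoids, among them prostaglandin E2 and prostacyclin. Ptgs1 is regarded as the constitutive cyclooxygenase gene, while Ptgs2 is induced by cytokines, growth factors and stress, also in cells of the heart, and its mRNA carries AU-rich elements that shorten its life. Ptgs2 mRNA is also used as a marker of ferroptosis, an iron-dependent form of cell death.

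Ptgs2 had the most different value of the 6 genes, and parts of the stretches that are known to control it are shown here for that reason. The first window runs from 250 bases before to 50 bases after the annotated start of Ptgs2, at chr1:150099781-150100080 on the plus strand. The second is the same window of Ptgs1, its constitutive counterpart, at chr2:36230176-36230475 on the plus strand. Both come from RefSeq on build GRCm38.p6. Capitals mark motif letters found on either strand.
Ptgs2 promoter: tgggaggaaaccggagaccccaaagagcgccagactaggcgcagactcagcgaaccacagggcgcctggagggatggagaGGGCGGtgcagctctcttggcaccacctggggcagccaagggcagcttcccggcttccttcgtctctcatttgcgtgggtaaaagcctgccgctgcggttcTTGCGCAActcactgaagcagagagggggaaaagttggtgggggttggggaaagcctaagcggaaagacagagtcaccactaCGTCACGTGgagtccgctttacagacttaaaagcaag
Ptgs1 promoter: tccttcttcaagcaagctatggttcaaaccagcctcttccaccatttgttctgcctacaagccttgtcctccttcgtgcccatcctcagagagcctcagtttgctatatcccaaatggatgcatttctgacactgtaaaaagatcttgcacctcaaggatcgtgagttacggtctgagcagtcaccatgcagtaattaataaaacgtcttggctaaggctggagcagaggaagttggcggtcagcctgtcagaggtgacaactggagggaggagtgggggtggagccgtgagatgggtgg

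In the Ptgs2 window the capitals are, in order, a GC box (GGGCGG, from 170 bases before the start), a C/EBP motif (TTGCNNAA, from 69 bases before it) and, after the start, the core of a cyclic AMP response element (TGACG, read on the minus strand, bases 14 to 18) that shares bases with an E-box (CACGTG, bases 17 to 22). Of 32851 RefSeq promoter windows of this length, 35.7% held the GC box, 10.8% the C/EBP motif, 20.8% the TGACG core and 7.15% the E-box. Searches for AP-1 (TGANTCA, in 7.81% of windows), TATAAA (13.6%), the ATF4-C/EBP composite TGATGNAA (3.97%), the NF-kB motif (4.51%) and the ER stress element (0.119%) gave no match in the Ptgs2 window, and none of the 9 motifs matched in that of Ptgs1. Windows were found for 6 of the 7 genes. Ptges3 had 4 GC boxes and 1 TGACG core, Ptges had 2 GC boxes and Ptges2 had 1 E-box. Pla2g4a had 2 windows, of which the one at its first start had no match and the other, at an inner start, had TATAAA on the opposite strand. A match describes the letters and is not evidence of binding. A search without a match speaks for the window only, since bases farther upstream or downstream were not searched. Known sites of Ptgs2 outside the window, for NF-kB or other factors, would therefore be missed. Positions are counted from the annotated start, and for Ptgs2 no other start was examined. Whether a motif placed after that start is transcribed was not tested.

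**Figure D1:**
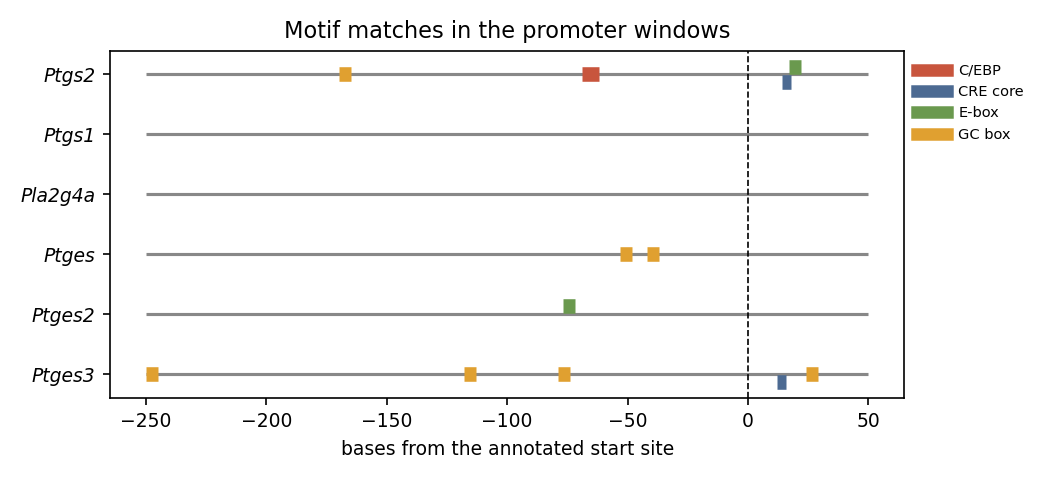
Motif matches (coloured blocks) along the promoter windows of 6 genes, in bases from the annotated start site (dashed line at 0). Ptgs2 has 4 matches and Ptgs1 none, while Ptges3 has 5; for Pla2g4a the window at its first start is drawn.

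The Ptgs2 mRNA is known for AU-rich elements in its 3′ untranslated region, where proteins that stabilise or destabilise it bind. One such stretch, of 30 bases from base 16 after the stop codon, lies at chr1:150105798-150105827 on the plus strand in GRCm38 and holds 4 ATTTA pentamers, shown in capitals.
Ptgs2 AU-rich stretch: ATTTATTTATTTAtgtgaagaATTTAattt

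Over its 2445 bases this region of Ptgs2 held 14 ATTTA pentamers, overlapping ones included, or 5.73 per kilobase. Of 10431 genes of the table with such a region of at least 100 bases, 97.2% had fewer, and the median was 2 pentamers or 1.40 per kilobase. Pla2g4a had 4 in only 443 bases, 9.03 per kilobase, Ptges3 had 4 in 1186 bases and Ptges2 had 4 in 3444 bases. Ptgs1 and Ptgis had 0. Thus of the 2 cyclooxygenase mRNAs only that of Ptgs2 carries this pentamer in the annotated region.

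Levels are FPKM, a unit that divides fragments by the length of the transcript and the size of the library, and can be compared between genes. The log2 ratio is that of (antagomir FPKM + 1) over (control FPKM + 1), and folds are on this scale, which understates differences of low genes. The values of all genes summed to 295404 FPKM with the negative control and 312806 FPKM with the antagomir. How many reads stand behind them is unknown, and counting intervals are therefore missing. Over the 10201 genes that reached 1 FPKM in either library the median log2 ratio was -0.05. At 1.5-fold, 13.4% of these genes were lower and 10.8% higher in the antagomir library, and at 2-fold 3.79% were lower and 2.88% higher. Of the genes past 1.5-fold 44.7% were higher, against 34.5% after rescaling to TPM, and of those past 2-fold 43.2% were higher, against 31.7% once a trend with transcript length and base composition was taken out.

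The labelled cell type was checked on its markers. Of 12 cardiomyocyte markers 10, among them Myh6, Actn2 and Ttn, had no row, which does not show that they were low. Tnnt2, which encodes cardiac troponin T, had 1.48 FPKM with the negative control and 8.19 FPKM with the antagomir, and the 2 markers with a row summed to 5.86 and 27.1 FPKM. Fibroblast markers had 6 of 10 rows and summed to 548 and 341 FPKM, with Col1a1, a collagen gene, at 58.5 and 24.2 FPKM. Smooth muscle markers had 6 of 7 rows, with none for Myh11. They summed to 1690.4 and 1325 FPKM, led by the actin gene Acta2 with 1304 and 845 FPKM. Their median log2 ratio was 0.01, with 2 (Acta2 and Lmod1) at least 1.5-fold lower and 1 (Tagln) higher. Tagln, whose exons overlap those of Pcsk7, had 18.2 and 37.8 FPKM, and Des, the desmin gene, had 345 and 423 FPKM. Macrophage markers had 2 of 10 rows (16.9 and 22.0 FPKM summed, Ptprc without a row), those of epicardium and mesothelium 3 of 8 (40.7 and 32.0 FPKM, Wt1 without a row) and endothelial markers, Pecam1 included, none of 9. Summed FPKM of smooth muscle and of fibroblast markers stood above that of cardiomyocyte markers in both libraries. With most cardiomyocyte markers lacking a row, the check does not settle the cell type. With the antagomir 3 of the 6 fibroblast markers were at least 1.5-fold lower, beside 13.4% of all genes. The other 3 were inside 1.5-fold. Both cardiomyocyte markers with a row were higher, Tnnt2 by 3.71-fold and Tnnc1 by 3.69-fold, where 10.8% of all genes were at least 1.5-fold higher. Of the 3 markers of epicardium and mesothelium 1 (Msln) was lower. The part of such marker differences in the values below was not tested, and in bulk RNA fewer cells of a type and less RNA per cell cannot be told apart.

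Ptgs2 was 4.02-fold lower in the antagomir library, Ptgs1 was 1.65-fold lower, and the other 4 genes were within 1.5-fold of the control. Of the 6 genes, 2 were thus at least 1.5-fold lower, beside 13.4% of all genes, and 1 was at least 2-fold lower, beside 3.79%. None was 1.5-fold higher, beside 10.8%. The median log2 ratio of the 6 was -0.20. Upstream genes (Pla2g4a, Ptgs1 and Ptgs2) had log2 ratios below 0, and the genes of terminal synthases had ratios above 0. That of Ptges3 was only 0.08 and turned to -0.01 after rescaling to TPM. The median log2 ratio of all genes was -0.05, so either sign was common, and 4 of the 6 genes were inside 1.5-fold. No order along the pathway is read from these signs.

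**Figure D2:**
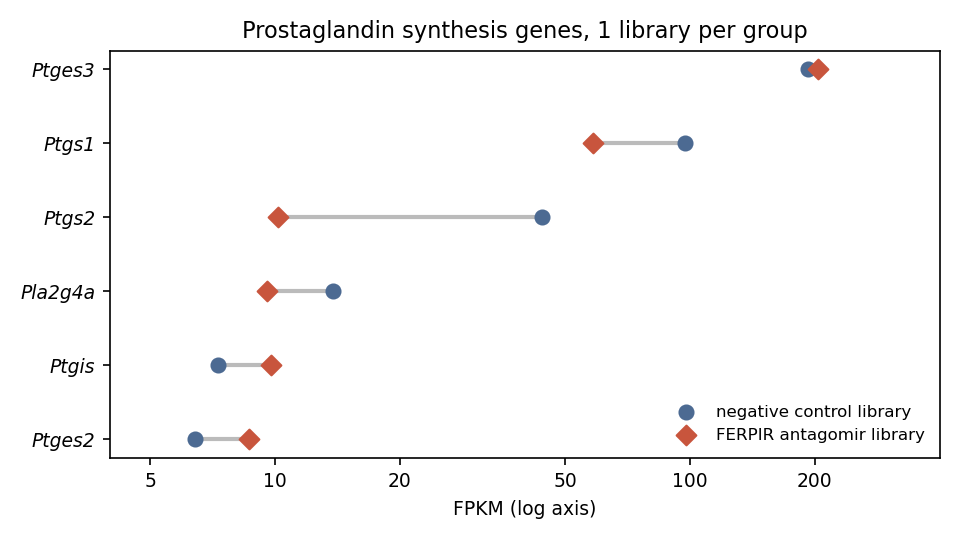
FPKM (log axis) of the 6 genes in the negative control (circles) and the FERPIR antagomir library (diamonds), 1 library per group, so no error bars can be drawn. The longest line is that of Ptgs2, from 44.0 to 10.2 FPKM; Ptges3 lies near 200 FPKM in both.

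Pla2g4a (chromosome 1, 149829618 to 149961290, minus strand) encodes the phospholipase that supplies arachidonic acid. It had 13.8 FPKM with the negative control and 9.57 FPKM with the antagomir, giving a log2 ratio of -0.48. This difference, 1.40-fold, was inside the 1.5-fold limit except after rescaling to TPM, where the log2 ratio was -0.59. A lower ratio was found in 17.8% of genes.

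Ptgs1 (chromosome 2, 36230426 to 36252272, plus strand) was the more abundant cyclooxygenase gene in both libraries. It had 97.0 FPKM with the negative control and 58.4 FPKM with the antagomir, giving a log2 ratio of -0.72. Its exons overlap those of the predicted gene Gm43621, and since strand use in the counting is not stated its value is uncertain to that extent. A lower ratio was found in 9.10% of genes.

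Ptgs2 (chromosome 1, 150100031 to 150108227, plus strand) had 44.0 FPKM with the negative control and 10.2 FPKM with the antagomir. Its log2 ratio was -2.01, and without a pseudocount it was 4.32-fold lower. It ranked 1248th by level among all genes with the negative control and 4119th with the antagomir. Only 29 of the 10201 genes had a lower ratio. No annotated exon of another gene overlaps its exons.

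Both cyclooxygenase genes together summed to 141 FPKM with the negative control and 68.6 FPKM with the antagomir. Ptgs2 made up 31.2% of that sum with the negative control and 14.9% with the antagomir. Ptgs1 was 2.21 times as abundant as Ptgs2 with the negative control and 5.73 times with the antagomir. In FPKM, however, the larger part of the difference in the sum was from Ptgs1, with 38.6 FPKM against 33.8 FPKM from Ptgs2, because Ptgs1 started from a higher level.

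**Figure D3:**
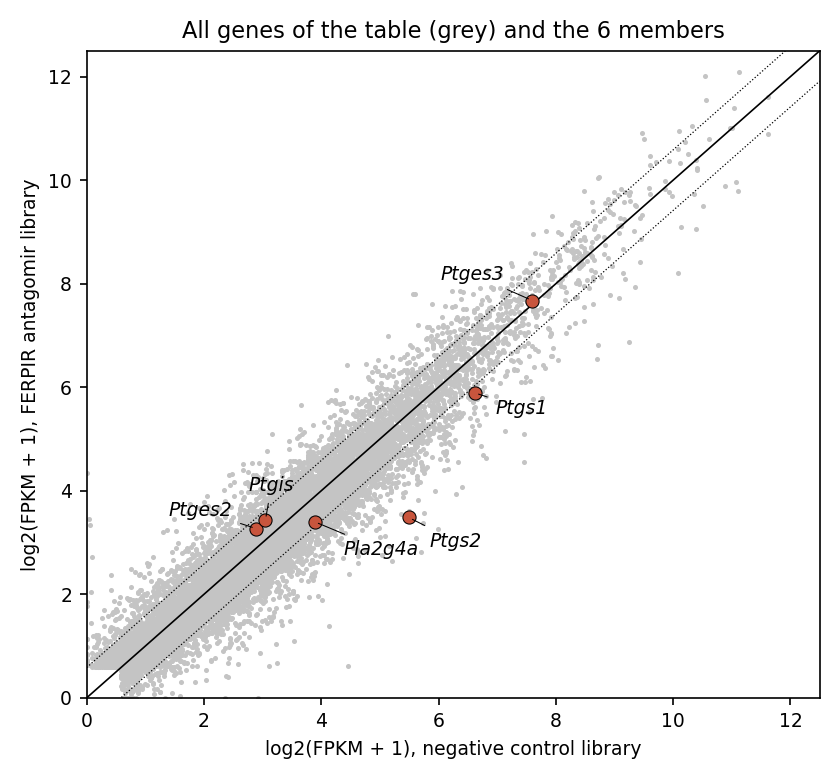
log2(FPKM + 1) of each gene of the table (grey points) in the control (x axis) and antagomir library (y axis), with the 6 genes in red; the solid line marks equal values and the dotted lines 1.5-fold differences. Ptgs2 lies far below the lower dotted line and Ptgs1 just below it, while the other 4 lie between the dotted lines.

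Among the terminal synthases, Ptges3 (chromosome 10, 128058954 to 128077272, plus strand) encodes a cytosolic prostaglandin E synthase that is also p23, a co-chaperone of Hsp90. It was the most abundant of the 6 genes, at 193 FPKM with the negative control and 203 FPKM with the antagomir. Its level was 30.04 times that of Ptges2 with the negative control and 23.5 times with the antagomir. Since p23 serves chaperone complexes in most cells, its mRNA level is not a measure of prostaglandin synthesis alone.

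Ptges2 (chromosome 2, 32395896 to 32405772, plus strand), which encodes a further prostaglandin E synthase, had 6.42 FPKM with the negative control and 8.64 FPKM with the antagomir, giving a log2 ratio of 0.38. Ptgis (chromosome 2, 167191805 to 167240604, minus strand), the prostacyclin synthase gene, had 7.27 and 9.78 FPKM, also a log2 ratio of 0.38, and its exons overlap those of 1110018N20Rik. Lower ratios were found in 80.4% and 80.6% of genes, so neither gene stood at an end of the distribution.

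By level the order in the control was Ptges3, Ptgs1, Ptgs2, Pla2g4a, Ptgis and Ptges2. In the antagomir library Ptges3 and Ptgs1 again led, while Ptgs2, Ptgis, Pla2g4a and Ptges2 lay close together between 8.64 and 10.2 FPKM. Ptgs2 had 3.19 times the level of Pla2g4a with the negative control and 1.06 times with the antagomir. Without replicates it cannot be said which of these neighbours differ beyond their spread.

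**Figure D4:**
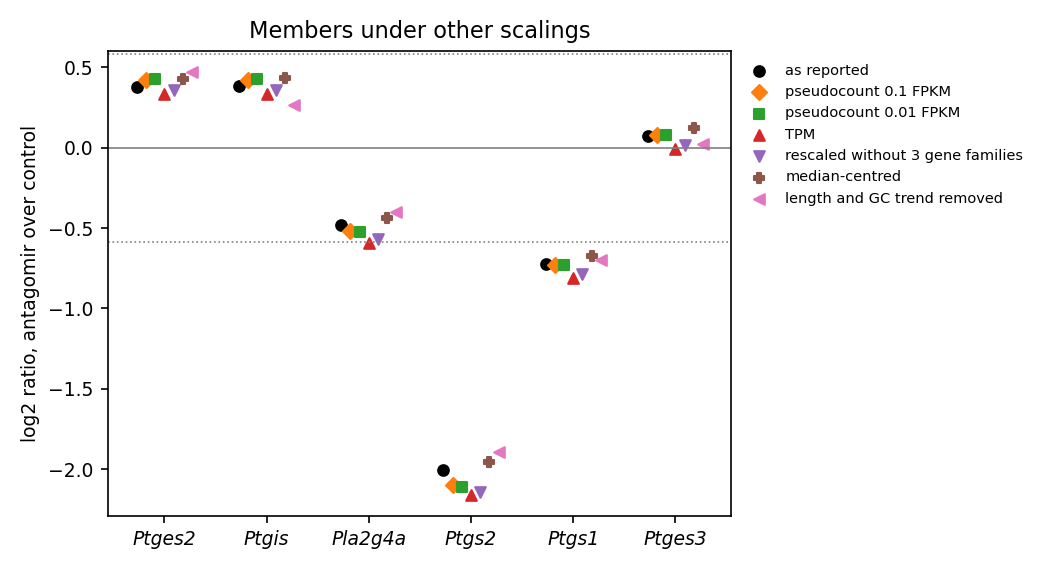
log2 ratio of the 6 genes (columns) as reported (black) and under 6 other scalings (colours); the dotted lines mark 1.5-fold. Ptgs2 lies between -1.89 and -2.16 throughout, Ptgs1 stays below the lower line, Pla2g4a crosses it as TPM, and Ptges3 lies at 0 or near it.

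The 4 genes whose 2 values lay nearest to those of Ptgs2, by Euclidean distance over log2(FPKM + 1) in the 2 libraries, were Wfs1, Sema3c, Gm20431 and Atp6v0c. Wfs1, which encodes a membrane protein of the endoplasmic reticulum, had 44.0 and 11.2 FPKM at a distance of 0.12. Sema3c, a secreted guidance factor gene, had 39.99 and 10.7 FPKM at 0.15. Gm20431, whose exons overlap those of Tmem189 and Ube2v1, had 52.0 and 9.34 FPKM at 0.26. Atp6v0c, a subunit gene of the vacuolar proton pump, had 52.9 and 10.8 FPKM at 0.27. With 2 libraries this likeness means no more than a similar level and ratio.

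The counts of the wider lists that follow stand beside the same 13.4% of all genes lower and 10.8% higher at 1.5-fold, and nothing particular to a list is read from them. Counts under another setting stand beside those of all genes under that setting. Around Pla2g4a, 25 genes were listed that release arachidonic acid or return it to membranes, and 16 had a row. Of these, 5 were at least 1.5-fold lower and none was 1.5-fold higher, with a median log2 ratio of -0.37. As TPM 8 were lower, beside 2037 of all 10201 genes. Pla2g2e, a secreted phospholipase A2 gene, had 23.8 FPKM with the negative control and 6.04 FPKM with the antagomir, 3.53-fold lower. Acsl4, whose product attaches arachidonic acid to coenzyme A, had 41.9 and 14.7 FPKM. Also lower were Pla2g15, a lysosomal phospholipase gene (3.02 and 1.01 FPKM), Lpcat3, which inserts polyunsaturated chains into phospholipids (8.67 and 4.61 FPKM, overlapping Emg1), and Abhd12, a lipid hydrolase gene (33.6 and 20.6 FPKM). Anxa1, which encodes an inhibitor of phospholipase A2 activity and was the most abundant gene of the list, had 328 and 364 FPKM.

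Among 18 listed prostanoid synthases and prostaglandin-metabolising enzymes 11 had a row, the 5 synthesis genes from Ptgs1 to Ptgis included. Ptgs1 and Ptgs2 were the 2 genes at least 1.5-fold lower, and Ptgr1 and Cbr3 the 2 that were 1.5-fold higher, and the median log2 ratio was 0.28. Ptgr1, whose product inactivates prostaglandins and leukotriene B4, had 16.7 FPKM with the negative control and 41.8 FPKM with the antagomir, 2.42-fold higher. Cbr3, a carbonyl reductase gene, had 13.5 and 28.7 FPKM. Akr1b8, an aldo-keto reductase gene, had 81.8 and 99.4 FPKM. Ptgds, Hpgds, Tbxas1 and Hpgd, for the prostaglandin D and thromboxane branches and for prostaglandin breakdown, had no row.

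Receptors and transporters were sparsely represented, with 6 of 14 listed genes in the table and 5 at 1 FPKM or more. Of these, 2 were at least 1.5-fold lower and 1 higher, with a median log2 ratio of -0.22. At a minimum of 5 FPKM 1 was lower and 0 were higher, beside 1065 and 843 of all 6739 genes. Without genes with overlapping exons 2 were lower and 0 higher, beside 880 and 720 of 6349, with a median of -0.54. Abcc4, an exporter of prostaglandins and other organic anions, had 6.02 FPKM with the negative control and 1.72 FPKM with the antagomir, 2.58-fold lower. Pparg, a nuclear receptor gene, had 2.97 and 1.19 FPKM. Ptger4, a prostaglandin E2 receptor gene whose exons overlap those of Ttc33, was low in both, with 0.987 and 2.36 FPKM. Ptgir, the prostacyclin receptor gene, had 0.422 and 0.562 FPKM, and Ptgfrn, which encodes a partner of the prostaglandin F receptor, had 13.99 and 14.6 FPKM.

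Transcription factors known to act on Ptgs2, with a few of their regulators, had 26 of 28 rows, and 4 were at least 1.5-fold lower and 3 higher, with a median log2 ratio of -0.23. With the length and GC trend taken out 7 were lower, beside 1269 of all 10192 genes. Among genes without overlapping exons 2 were, beside 880 of 6349. Atf3, a stress-induced factor, had 176 FPKM with the negative control and 22.5 FPKM with the antagomir, and Myc, a growth-promoting factor gene, had 77.0 and 30.4 FPKM. Hif1a, the hypoxia factor gene, had 57.8 and 33.5 FPKM, and Usf1, an E-box factor gene, had 22.6 and 14.3 FPKM, both with exons that overlap other genes. Creb1, a cyclic AMP response factor gene, was low in the control (0.617 FPKM) and had 2.81 FPKM in the antagomir library. Junb, an AP-1 subunit gene, had 10.4 and 22.8 FPKM, its exons overlapping Prdx2, and Nfkbia, which encodes an inhibitor of NF-kB, had 9.39 and 16.3 FPKM. The NF-kB subunit gene Rela had 37.6 and 26.2 FPKM. Cebpb, a C/EBP factor gene whose exons overlap Tmem189, had 145 and 113 FPKM. Rela and Cebpb were both inside 1.5-fold and named after their values were seen. Atf4 (563 and 406 FPKM) and Jund (239 and 239 FPKM, overlapping Gm11175), the 2 most abundant genes of the list, were also inside 1.5-fold.

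RNA-binding proteins and kinases known to act on Ptgs2 mRNA had 17 of 18 rows, with 4 genes at least 1.5-fold lower, 1 higher and a median log2 ratio of -0.39. As TPM 8 were lower, beside 2037 of all 10201 genes. Among genes without overlapping exons 1 was lower, beside 880 of 6349, since exons of Zfp36, Khsrp and Dusp1 overlap those of other genes. Exons of Elavl1 and Rbm3 do so too. The list median was -0.10 among genes without overlapping exons, beside -0.04 for all such genes. With the length and GC trend taken out it was -0.21, beside -0.03 for all genes. Mapk14, the p38 kinase gene of the pathway that stabilises AU-rich mRNAs, had 10.4 FPKM with the negative control and 4.45 FPKM with the antagomir. Dusp1, which encodes a phosphatase of that kinase, had 22.5 and 10.7 FPKM. The destabilising factors Zfp36 and Khsrp had 3.71 and 2.10 FPKM and 42.9 and 25.96 FPKM, and the stabilising factor Elavl1, inside 1.5-fold and named after its value was seen, had 11.7 and 7.997 FPKM. The part of these differences in the Ptgs2 value was not tested. Rbm3, a cold-inducible RNA-binding protein gene, had 64.0 and 114 FPKM. Ybx1, the most abundant gene of the list, had 270 and 247 FPKM.

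Cytokines, growth factors and NF-kB targets often induced with Ptgs2 went both ways. Of 25 listed genes 19 had a row and 16 reached 1 FPKM, of which 6 were at least 1.5-fold lower and 4 higher, with a median log2 ratio of -0.46. Csf1, a macrophage growth factor gene, had 68.6 FPKM with the negative control and 25.6 FPKM with the antagomir, and Tnfaip3, which encodes a brake on NF-kB, had 4.45 and 1.09 FPKM. Cxcl1, Ereg, Tnfrsf1a and Il6 were also lower, Il6 from only 1.21 to 0.128 FPKM. In the opposite direction, the chemokine genes Ccl2 and Ccl7 had 21.8 and 55.4 FPKM and 56.3 and 143 FPKM, and Il33 had 9.90 and 17.6 FPKM. Il1a and Il1b, encoding the classical inducers of Ptgs2, had no row.

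**Figure D5:**
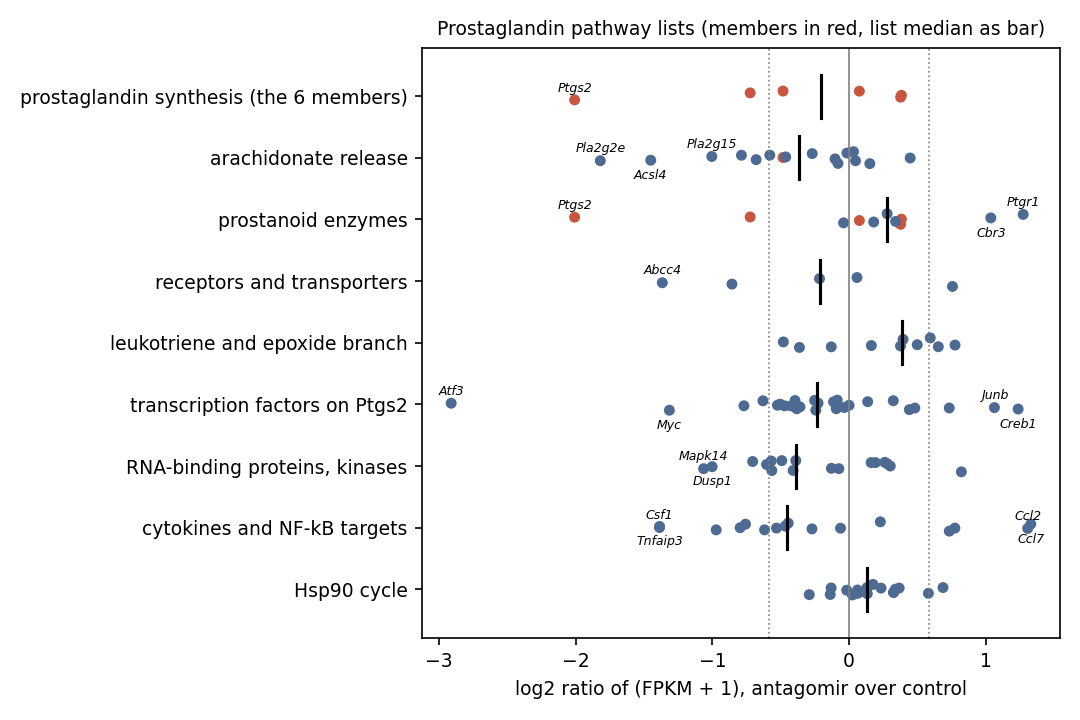
log2 ratio of (FPKM + 1) of the single genes (points) in the prostaglandin synthesis genes and 8 pathway lists, genes reaching 1 FPKM; black bars are list medians, dotted lines mark 1.5-fold, red points are the 6 synthesis genes and genes past 2-fold are named. Ptgs2 at -2.01 and Pla2g2e at -1.82 lie farthest left in their lists, Ptgr1 at 1.27 farthest right among the enzymes.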

How the data were processed

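Polyadenylated RNA was isolated, per the labels' protocols, and libraries were made with a stranded kit. The deposited values are FPKM made by the authors with cutadapt, HISAT2 and StringTie 1.3.3 on GRCm38, per the submitters' processing notes; settings, annotation release and strand use: not given in the sources used here. The table has 10992 lines, all protein coding, each with a higher value above 0.50 FPKM; lines of 10 repeated symbols were summed. No step size tried turned nearly all low FPKM values of single-transcript genes into whole reads. The best of 7983 step sizes in the control library put 28.3% of 53 values within 0.05 of a read. For a single step size the share without steps is 10%. The best of many can lie above that, so these shares cannot be compared. Depth is therefore unknown.

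The members and gene lists were chosen with earlier results of these data known. Named are all members; in each list the genes past 1.5-fold and the 2 most abundant; the 4 genes nearest to Ptgs2; and defining cell type markers. The text prints part of these, and a few genes chosen after their values were seen are marked or stand beside list members: Ptgir, Rela, Cebpb, Elavl1, Alox5, Alox5ap and, by position, the neighbours of Ptgs2.

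Exon overlaps, lengths, GC content and 3′ untranslated regions came from GENCODE M21 on the same build, which held 10982 of the gene identifiers. Alternatives were pseudocounts of 0.1 and 0.01, other minima, TPM, rescaling without 3 gene families, centring, removal of a trend over length and GC content, and leaving out genes with overlapping exons. Tools were matplotlib 3.10.9, numpy 2.4.6 and pandas 2.3.3 under Python 3.11.15. The ratio and the 2-fold limit were run on simulated antagomir values with known folds, which checks their arithmetic only. The other steps had no such check.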

Additional observations from a re-analysis of the deposited data

How the results depend on the processing

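Without replicates or read depth, a value was said to hold when it stayed on its side of 1.5-fold and moved by less than 1.5-fold. No paired analysis was possible because each group had 1 library. Ptgs2 and Ptgs1 stayed past 1.5-fold under each of the 6 scalings, at log2 ratios of -1.89 to -2.16 and -0.67 to -0.81. Pla2g4a passed the limit only as TPM, at -0.59. Rescaling to TPM brought both libraries to a total of 1000000 and kept the pseudocount of 1. It therefore changed the weight of the pseudocount as well as the library totals. The part of each was not tested. Without genes with overlapping exons 1 synthesis gene was at least 1.5-fold lower instead of 2, since Ptgs1 drops out, and 880 and 720 of all genes were 1.5-fold lower and higher instead of 1364 and 1104, with fewer genes counted. Without genes that overlap protein-coding exons, chosen after seeing the data, the synthesis genes lower were again 2. The counts of all genes at least 2-fold lower, 387 as reported, were 635 and 676 with pseudocounts of 0.1 and 0.01, 692 as TPM and 672 after rescaling without mitochondrial, hemoglobin and ribosomal protein genes. Those at least 2-fold higher, 294 as reported, were 492 and 524 with these pseudocounts, 183 with the trend over length and GC content removed and 185 without overlapping genes.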

Other observations

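Arachidonic acid also feeds the lipoxygenase and epoxide pathways. Of 21 genes listed for these 11 had a row and 10 reached 1 FPKM. Of these none was 1.5-fold lower and 3 were 1.5-fold higher, with a median log2 ratio of 0.39. Once the trend with length and base composition was taken out 1 was lower and 1 higher, beside 1269 and 863 of all 10192 genes. Alox5, the 5-lipoxygenase gene that starts leukotriene synthesis, had 40.2 FPKM with the negative control and 45.1 FPKM with the antagomir, and its partner Alox5ap had 6.55 and 8.93 FPKM; both were chosen after their values were seen. Alox5 is known from white blood cells, of whose 10 macrophage markers here only Lyz2 (3.28 and 4.44 FPKM) and Cd14 (13.6 and 17.5 FPKM) had rows. Mgst3, a microsomal glutathione transferase gene, had 37.1 and 58.9 FPKM, Mgst2, whose product can make leukotriene C4, had 1.47 and 3.22 FPKM, and Ephx1, an epoxide hydrolase gene, had 121 and 86.5 FPKM. Exons of Alox5ap and Ephx1 overlap predicted genes.

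The list of the Hsp90 chaperone cycle, Ptges3 included, had 18 of 19 rows, with none at least 1.5-fold lower, 1 higher and a median log2 ratio of 0.13, and without Ptges3 also 0.13. Hsp90ab1 had 704 and 643 FPKM and Hsp90aa1 had 188 and 242 FPKM. Fkbp4, a co-chaperone of steroid receptors, had 104 and 168 FPKM, 1.61-fold higher.

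Ptgs2 and Pla2g4a are neighbours on mouse chromosome 1, 138741 bases apart on opposite strands. Within 500000 bases of Ptgs2 the table held 3 further genes. BC003331 had 13.6 and 9.76 FPKM and Tpr, a nuclear pore gene, had 21.5 and 15.5 FPKM. Their log2 ratios were -0.44 and -0.45, beside the -0.48 of Pla2g4a, and 17.8% of all genes had a lower ratio than Pla2g4a. Exons of BC003331 overlap those of Tpr, and strand use in the counting is not stated, so their values may not be independent. Prg4, the lubricin gene, whose exons overlap those of Tpr, had 7.65 and 0.532 FPKM, a log2 ratio of -2.50. Ptgs2 and Prg4 thus differed more than the 3 others of the region.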
